A study of Triticum aestivum with 39 samples.

Results

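The floral organ probesets were 55 of 39564 retained wheat probesets, out of 61115 wheat probesets on the Affymetrix Wheat GeneChip, that read higher in the 3 dissected parts of the mature floret (floral bracts, anthers and pistil) than in any of the 10 other tissues of a wheat expression atlas. A probeset is a group of short probes designed against 1 transcript sequence, and the retained probesets were those whose names start with Ta or TaAffx and lack the suffixes that mark probes shared between transcripts or the antisense strand. Levels are given throughout as log2(signal + 16), averaged over the 3 arrays of a tissue unless an array is named. The gap of a probeset is its lowest mean among the 3 floral organs minus its highest mean among the 10 other tissues, and members had a gap of at least 1 and no named gene. The members were therefore chosen by their own values, and the gap is a description with no test. The rule kept 0.139% of the retained probesets. Of the 110 retained probesets with a named gene, 0 met its arithmetic, and at that rate few or none would be counted. The named gene that came closest was CAT1, which encodes a catalase, with a gap of 0.05 on probeset TaAffx.80209.1.S1_at. That probeset was low throughout, at 5.85 in bracts, 5.37 in anthers, 5.51 in pistil and 5.32 in its highest other tissue. The H+-ATPase gene came next, with a gap of 0.008, at 14.66 in bracts, 14.05 in anthers and 14.27 in pistil.

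The anther makes the pollen, and its tapetum, the cell layer that lines the pollen sac, feeds the developing grains and lays down much of their outer wall. The pistil holds the ovary and carries the stigma on which pollen lands. The bracts (the lemma and palea that enclose a floret and the glumes at the base of the spikelet) are green, photosynthetic and protective. Transcripts abundant in maturing pollen commonly include those of wall and cytoskeleton proteins that the grain uses to germinate and to grow its tube.

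RNA came from 13 tissues of untreated plants of the cultivar Chinese Spring, with 3 arrays of independent biological samples for each tissue and 39 arrays in all. Anthers, floral bracts and pistils were taken from the central floret of 10 spikes per collection, 2 days before anthesis. They were compared with 3 parts of the germinating seed labelled coleoptile, root and embryo, and with leaf, crown and root of 10 cm seedlings. For the part labelled embryo, the authors' list of tissues gives a mesocotyl. Further tissues were the immature inflorescence of 2 to 3 cm and the whole caryopsis at 3 to 5 days after pollination (3-5 DAP). Embryo and endosperm at 22 days after pollination (22 DAP) were also compared. Each sample is a whole dissected organ, so a larger share of cells that hold a transcript and more transcript per cell cannot be told apart.

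Of 9 probesets of the marker genes, 8 were highest in the tissue they were fixed for or, for genes of green tissue, in seedling leaf. The other, a petC probeset (TaAffx.128418.105.S1_at), was low throughout, with its highest mean of 5.41 in floral bracts. Raftin1a, a gene of pollen development, had its highest mean in anthers at 9.80, and phosphoribulokinase (PRK), a Calvin cycle enzyme, had 14.25 in floral bracts and 5.68 in anthers. No marker of the pistil was fixed. Correlations between replicate arrays ran between 0.925 and 0.968, and the median signal of an array was between 59.4 and 92.4. A group of 9 arrays stood apart. On the arrays of floral bracts, pistil and seedling root, the polyadenylated control dap, a bacterial transcript that can be spiked into RNA before labelling, averaged at most 5.01, against at least 8.72 on the other 30 arrays, which included those of anthers. The 18S rRNA control was also lower on these 9 arrays, at most 6.15 against at least 7.26.

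The members carried no gene names. The reference table paired 2 of the 55 with a gene of a locus number only, Ta.10341.1.S1_at with LOC543126 and Ta.14414.1.S1_at with LOC543456, and no role is given for either. The other 53 were not paired with a gene, so the members are described by probeset. The 55 members fell in 55 different sequence clusters by the number in their names. Names of the Ta kind made up 36 of the members, or 65.5%, against 38.9% of the retained probesets.

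Most members were far higher in anthers than in the other 2 organs. The mean level in anthers had a median of 15.23 over the members and ran between 6.41 and 15.89. In floral bracts the median was 8.95, with a range of 6.44 to 13.02, and in pistil it was 8.47, with a range of 6.46 to 15.21. The medians of all retained probesets were 6.11 in anthers, 5.99 in floral bracts and 5.90 in pistil. In the 10 other tissues the median level of the members lay between 5.06 and 5.64. The spread of the anther arrays was small at this height, since the median SD over 3 arrays was 0.119 for members and 0.344 for all retained probesets. In pistil it was 0.465 for members and 0.294 for all retained probesets.

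**Figure D1:**
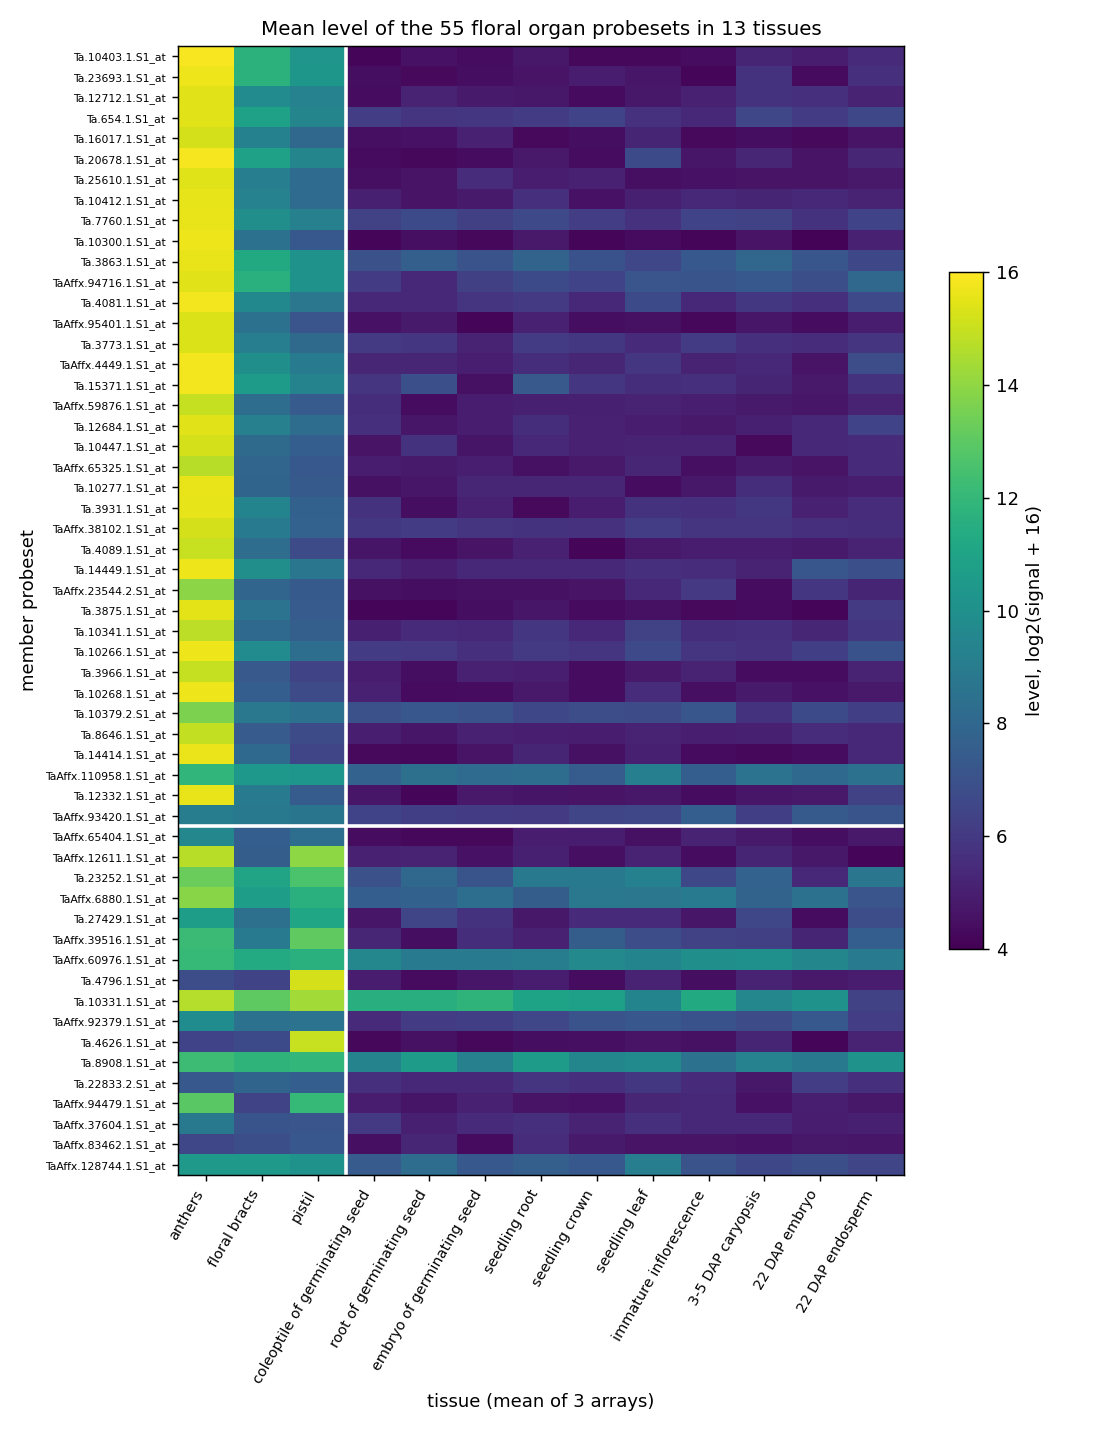
Mean level of each of the 55 members, as log2(signal + 16) over 3 arrays, in anthers, floral bracts and pistil (left of the white line) and in the 10 other tissues; the members above the horizontal white line have the order anthers, bracts, pistil. The anther column is at 15 or above for 29 members, and the floral columns exceed the 10 others in each row, as the rule requires.

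Anthers had the highest mean of the 3 organs for 48 members, pistil for 5 and floral bracts for 2. The lowest organ, which set the gap, was the pistil for 39 members, the bracts for 13 and the anthers for 3. The commonest order was anthers, then bracts, then pistil, in 38 members. A further 10 had anthers, then pistil, then bracts. In anthers 29 members had a level of at least 15, among 113 such retained probesets, and the member with the highest level was the second of all retained probesets. The highest signals on the anther arrays were between 60283 and 70260, a level of 15.88 to 16.10. The 29 members therefore lay close to the top of the range read on the anther arrays. Higher levels were read elsewhere, up to 16.77 to 16.93 on the 22 DAP endosperm arrays.

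The gap ran between 1.01 and 4.84 with a median of 1.63, against a median of −1.26 over all retained probesets, and it was at least 2 for 19 members. The next tissue below the floral organs was most often the 22 DAP endosperm, for 15 members, followed by the seedling leaf and the 3-5 DAP caryopsis with 9 each. The immature inflorescence, the young form of the same organ system, was next for 5 members. On single arrays, 50 members had each of the 9 floral arrays above each of the 30 other arrays, which 0.361% of retained probesets had. The rule used the means of these same arrays, so this count largely follows from the choice and is only a description. The 5 that overlapped were TaAffx.59876.1.S1_at, Ta.3966.1.S1_at, Ta.4626.1.S1_at, Ta.14414.1.S1_at and TaAffx.37604.1.S1_at. The array carries 64 reporter probesets, which are not wheat genes, and 95% of them read below 6.52 on an average array. All 10 other tissues were below that value for 33 members, and the lowest floral organ was above it for 51.

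Ta.10403.1.S1_at had the widest gap, 4.84. Its levels were 16.02, 15.82 and 15.85 on the anther arrays, 11.98, 11.88 and 11.25 on the bract arrays and 11.26, 10.14 and 9.35 on the pistil arrays. The 3 organs did not overlap except that the highest pistil array lay just above the lowest bract array, and the next tissue, the 22 DAP endosperm, averaged 5.41 ± 0.89 (SD, n = 3). As deposited signals these were 66393, 57747 and 58855 in anthers, 4013.7, 3748.6 and 2425.4 in bracts and 2427.9, 1110.4 and 636.22 in pistil.

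Ta.23693.1.S1_at was much alike, with a gap of 4.61. It read 15.79, 15.55 and 15.68 in anthers, 11.94, 11.70 and 11.56 in bracts and 11.22, 10.20 and 9.64 in pistil, so that all 3 bract arrays exceeded all 3 pistil arrays. The next tissue was the 3-5 DAP caryopsis at 5.74 ± 1.31. Ta.12712.1.S1_at had a gap of 3.57, with 15.59, 15.36 and 15.42 in anthers, 9.92, 10.11 and 9.38 in bracts and 9.63, 9.15 and 9.17 in pistil. Here the bract and pistil arrays overlapped, and the caryopsis again came next at 5.75 ± 0.35.

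The next 6 by gap had the same form. Ta.654.1.S1_at (gap 2.87), Ta.16017.1.S1_at (2.83), Ta.20678.1.S1_at (2.77), Ta.25610.1.S1_at (2.66), Ta.10412.1.S1_at (2.52) and Ta.7760.1.S1_at (2.51) averaged between 15.23 and 15.82 in anthers, between 9.14 and 10.85 in bracts and between 8.07 and 9.47 in pistil. The tenth, TaAffx.65404.1.S1_at (gap 2.39), differed from them in height and in order. It read 9.41, 9.51 and 9.77 in anthers, 7.56, 7.76 and 7.48 in bracts and 8.51, 8.34 and 8.19 in pistil. Its 3 organs did not overlap, with anthers highest and bracts lowest.

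**Figure D2:**
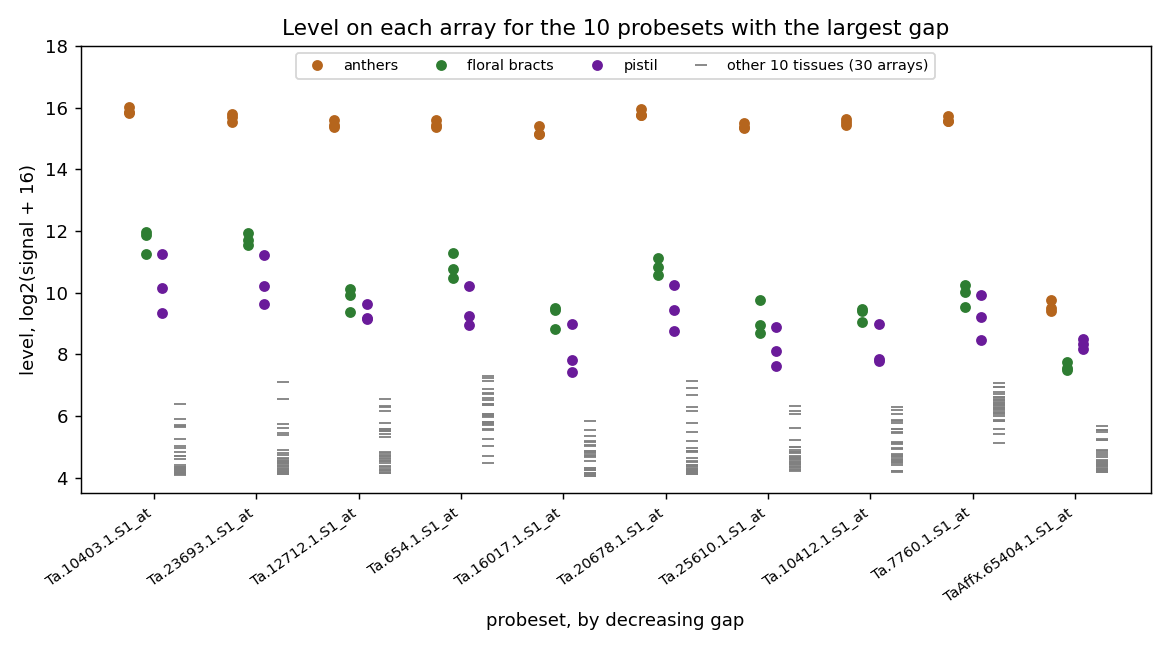
Level, as log2(signal + 16), on each of the 39 arrays for the 10 members with the widest gap; coloured points are the 3 anther, 3 bract and 3 pistil arrays, and grey dashes are the 30 arrays of the 10 other tissues. In 9 of the 10 the anther points lie above 15 and far above bracts and pistil, while TaAffx.65404.1.S1_at reaches 9.77 at most.

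The threshold cut through a continuous range. Just inside it were TaAffx.128744.1.S1_at with a gap of 1.01, TaAffx.83462.1.S1_at with 1.02 and TaAffx.37604.1.S1_at with 1.05. Just outside it were Ta.3988.1.S1_at with 0.99, TaAffx.5855.1.S1_at with 0.98 and Ta.9438.1.S1_at with 0.96. TaAffx.128744.1.S1_at was almost level over the floret, with 10.39, 10.31 and 10.63 in anthers, 10.47, 10.39 and 10.49 in bracts and 10.18, 10.08 and 10.11 in pistil, and the seedling leaf followed at 9.11. TaAffx.83462.1.S1_at was low in each organ, between 5.90 and 7.03 on the anther arrays, between 6.41 and 7.52 on the bract arrays and between 6.94 and 7.51 on the pistil arrays.

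Which organ was highest was not fixed by the rule, and the 3 contrasts among the organs were tested with limma over all retained probesets, with Benjamini-Hochberg adjustment and a difference of at least 1. Anthers were above floral bracts for most members. The difference was positive in 51 of 55, with a median of 5.79 over the members and 0.11 over all retained probesets, and it ran between −0.56 and 8.10. It passed the test as higher in anthers for 47 members, where 15.5% of retained probesets did, and as lower for 0, where 16.4% did. All 3 anther arrays lay above all 3 bract arrays in 49 members, against 25.5% of retained probesets, and below them in 1, against 23.3%.

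The widest differences were those of Ta.10268.1.S1_at and Ta.10277.1.S1_at. Ta.10268.1.S1_at read 15.76, 15.64 and 15.69 in anthers and 7.99, 7.52 and 7.27 in bracts, a difference of 8.10 ± 0.38 (SE; adjusted p = 4.11e-17, limma). Ta.10277.1.S1_at read 15.64, 15.56 and 15.61 in anthers and 8.34, 7.83 and 7.45 in bracts, a difference of 7.73 ± 0.36 (adjusted p = 2.9e-17, limma). In both the arrays of the organs were far apart. The 8 members that did not pass included Ta.4796.1.S1_at and Ta.4626.1.S1_at, both highest in pistil, and Ta.8908.1.S1_at and TaAffx.60976.1.S1_at, which were high in all 3 organs.

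Anthers were also above pistil for most members. The difference had a median of 6.42 over the members, against 0.11 over all retained probesets, and ran between −8.57 and 9.12. It passed as higher in anthers for 41 members (14.5% of retained probesets) and as lower for 2 (14.4%). All 3 anther arrays lay above all 3 pistil arrays in 49 members (24.5%) and below them in 3 (22.4%). Ta.14414.1.S1_at, paired with LOC543456, had the widest positive difference. It read 15.73, 15.55 and 15.65 in anthers and 7.51, 6.85 and 5.22 in pistil, a difference of 9.12 ± 0.40 (adjusted p = 8.93e-18, limma). Its pistil replicate 3 fell among the levels of the other tissues, whose highest mean was 5.37 in the 22 DAP endosperm. Ta.10268.1.S1_at followed with 8.97 ± 0.38 (adjusted p = 4.68e-18, limma), against 7.49, 6.60 and 6.08 on its pistil arrays.

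Bracts and pistil came from the same group of 9 arrays, whereas anthers came from the other 30, so the difference between anthers and either organ cannot be told apart from a difference between the groups of arrays. Scaling every array to its hybridization controls, which lowered the median difference of anthers minus bracts over all retained probesets to −0.37, left 42 members higher and 1 lower in anthers than in bracts, and 39 higher and 4 lower than in pistil. The share of all calls that were higher in anthers then fell to 20.3% against bracts, where it was 48.5% with the signals as deposited, and to 29.4% against pistil, where it was 50% as deposited and 37.2% with the arrays set to equal medians.

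Between pistil and floral bracts the members split. The difference had a median of −0.73, against 0.03 over all retained probesets, was negative in 40 of 55 and ran between −1.70 and 8.75. It passed the test as lower in pistil for 17 members (30.9%), where 10.6% of retained probesets did. It passed as higher for 8 members (14.5%), where 7.47% of retained probesets did. All 3 pistil arrays lay below all 3 bract arrays in 21 members (18.7% of retained probesets) and above them in 10 (20.4%). The count moved with the settings and with single arrays. With an offset of 1 in place of 16 before log2 there were 1 lower and 7 higher, and with only these 2 organs in the fit there were 9 lower and 8 higher. Without bract replicate 1 there were 7 lower, without bract replicate 2 there were 10, without pistil replicate 2 there were 9 and without pistil replicate 3 there were 5, each with 7 higher. Without pistil replicate 1 there were 23 lower and 7 higher. Scaled to the hybridization controls there were 26 lower and 6 higher, and the share of all calls that were higher in pistil was then 25.6%, against 41.3% as deposited.

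Ta.3931.1.S1_at and Ta.14414.1.S1_at had the widest differences towards bracts among members whose arrays did not overlap. Ta.3931.1.S1_at read 8.34, 7.88 and 6.95 in pistil and 9.85, 9.35 and 9.08 in bracts, a difference of −1.70 ± 0.41 (adjusted p = 0.00187, limma). Ta.14414.1.S1_at had 8.55, 8.05 and 7.71 in bracts beside the pistil values above, a difference of −1.58 ± 0.40 (adjusted p = 0.00295, limma). With an offset of 1 neither passed, at −1.79 (adjusted p = 0.0602) and −1.85 (adjusted p = 0.0536).

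**Figure D3:**
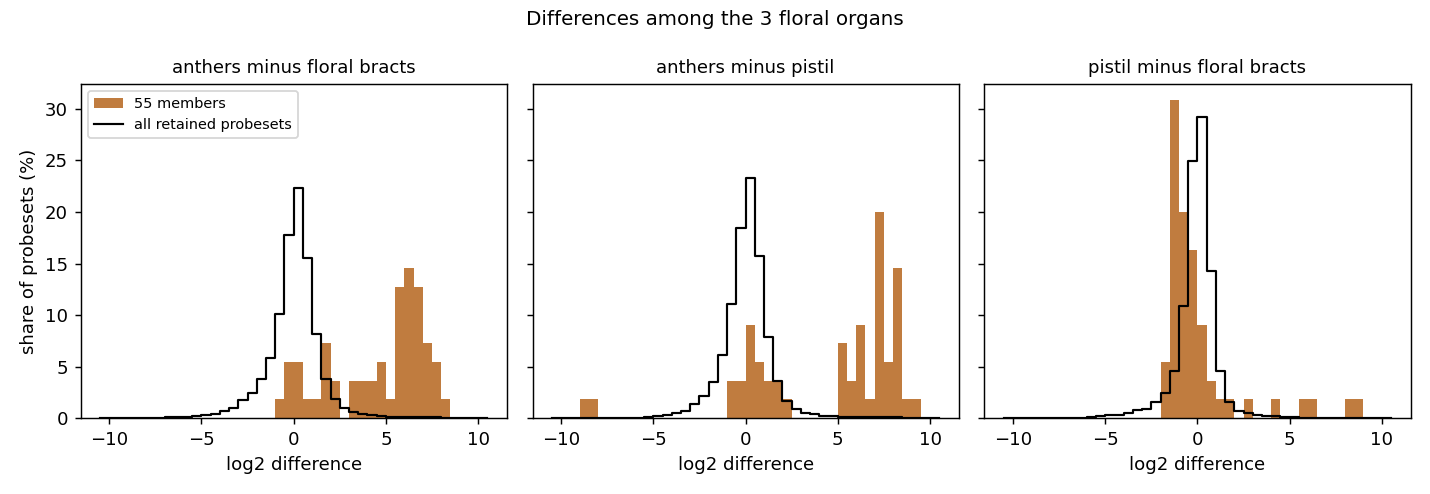
Share of probesets, in percent, by log2 difference for anthers minus floral bracts, anthers minus pistil and pistil minus floral bracts; filled bars are the 55 members and the black line is all 39564 retained probesets. The members' medians are 5.79, 6.42 and −0.73, and the line centres near 0 in each panel.

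The 38 members with the order anthers, bracts, pistil were set apart after their values had been seen, and are described without a test. Their levels had a median of 15.47 in anthers (9.10 to 15.89), 9.13 in bracts (7.34 to 11.73) and 8.17 in pistil (6.46 to 10.35), and their highest other tissue had a median of 6.02. The anthers minus bracts difference had a median of 6.21 and the pistil minus bracts difference a median of −1.11, between −1.70 and −0.08. These differences are negative by the way the 38 were set apart, and the rule limits how low the pistil can be, so their range and the correlation that follows were partly fixed by the choice. Across these 38 probesets the mean levels in bracts and pistil had a Pearson r of 0.942 and a Spearman rho of 0.932, and those in anthers and bracts a Pearson r of 0.164. All of these points share the same 9 arrays, and the anther levels were mostly crowded between 15 and 16. In the other 17 members the r between bracts and pistil was 0.201 and the rho 0.04.

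**Figure D4:**
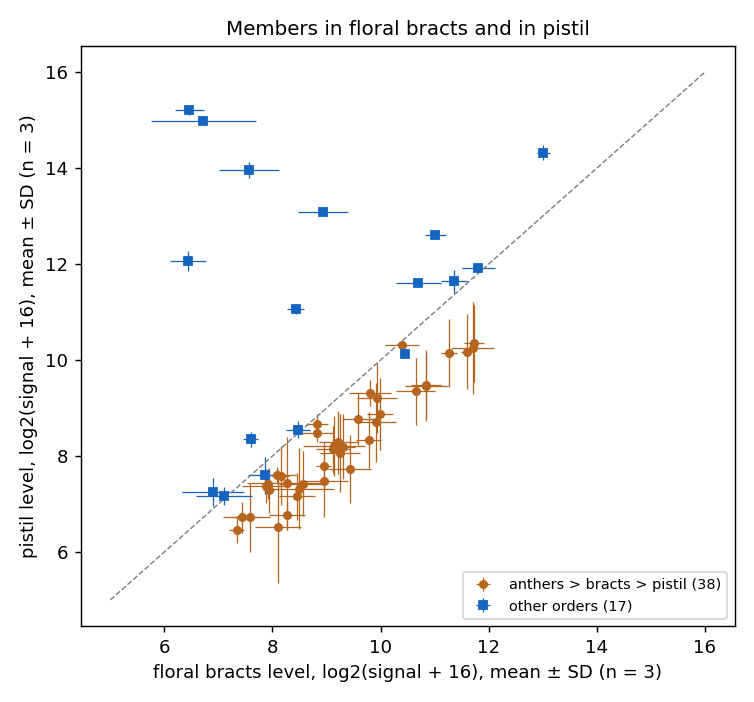
Mean level in pistil against mean level in floral bracts for the 55 members, as log2(signal + 16) with bars of 1 SD over 3 arrays; the dashed line marks equal levels. The 38 members with the order anthers, bracts, pistil (circles) lie below the line by the way they were set apart, and among the other 17 (squares) Ta.4796.1.S1_at is highest, at 15.21 in pistil and 6.46 in bracts.

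In most of the 38 the same array was the highest of its organ. Anther replicate 1 was the highest anther array in 34 of them, replicate 2 in 0 and replicate 3 in 4. Bract replicate 1 was the highest bract array in 29, replicate 2 in 6 and replicate 3 in 3. Pistil replicate 1 was the highest in 34, replicate 2 in 4 and replicate 3 in 0. Replicate 1 was thus most often the highest in all 3 organs. The median level over the 38 was 15.60, 15.38 and 15.47 on anther replicates 1, 2 and 3, 9.42, 9.10 and 8.82 on bract replicates 1, 2 and 3, and 8.69, 7.99 and 7.65 on pistil replicates 1, 2 and 3. Over all retained probesets replicate 1 was the highest anther array in 36.7%, the highest bract array in 30.8% and the highest pistil array in 32.8%. In the other 17 members it was the highest anther array in 10, the highest bract array in 1 and the highest pistil array in 6. Over all retained probesets the deviations of same-numbered arrays from their organ means correlated between −0.024 and 0.027 for the 3 pairs of organs. What the arrays of replicate 1 have in common was not tested.

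**Figure D5:**
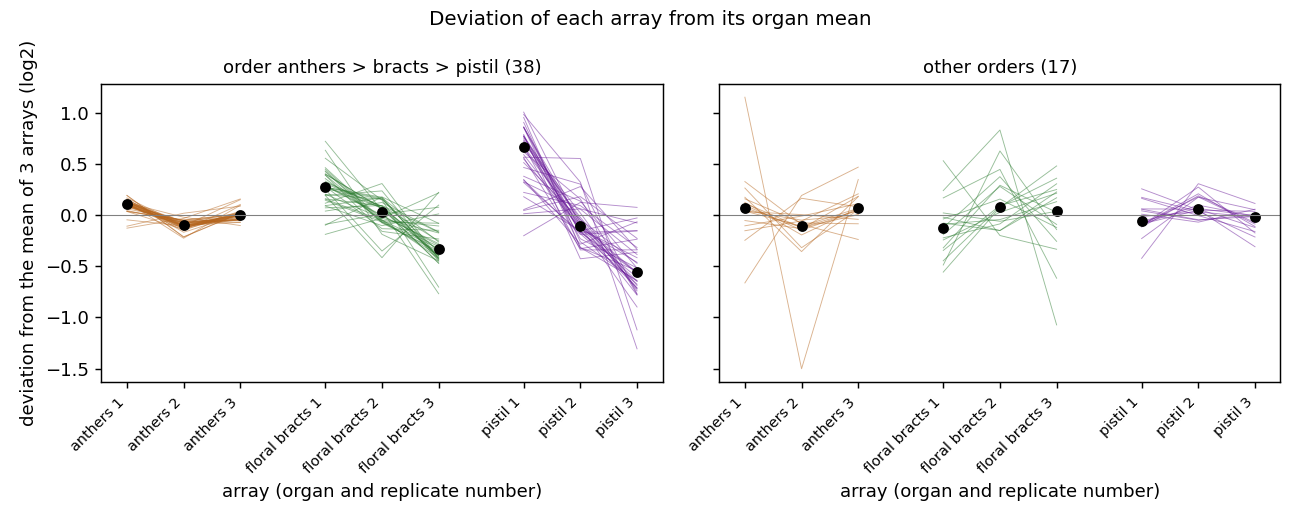
Deviation of each array from the mean of its organ, in log2 units, for the 38 members with the order anthers, bracts, pistil (left) and the other 17 (right); each line joins the 3 arrays of 1 member, black points are medians, and the replicate numbers have no order. On the left, pistil replicate 1 is 0.66 above and replicate 3 is 0.55 below the organ mean by the median, while on the right the medians stay near 0.

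Other transcripts of anthers were read on the same arrays, and the part of anther RNA in the bract and pistil samples was not tested. Raftin1a read 8.75, 11.45 and 9.19 in anthers, 5.48, 5.13 and 5.28 in bracts and 4.17, 4.44 and 4.20 in pistil. It was therefore at the level of the 10 other tissues (4.85 to 6.89) or lower in both organs. Its mean anther level, 9.80, was itself far under that of most members. A drop equal to the members' median anthers minus bracts difference, 5.79, would leave it near background. Raftin1a therefore cannot show whether anther RNA was in the bract and pistil samples.

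Other transcripts were as high in anthers without being members. There were 45 retained probesets without a named gene that averaged at least 15 in anthers and below 7 in each of the 10 other tissues, limits chosen after the values had been seen. Of these 24 were members and 21 were not, and the order anthers, bracts, pistil was seen in 40 of the 45 and in 16 of the 21. The 24 members had a median of 9.18 in bracts and 8.10 in pistil, and the 21 others had 5.998 in bracts (4.73 to 8.64) and 5.86 in pistil (4.46 to 7.69). These medians of the 21 were under the reporter value of 6.52 and close to the medians of all retained probesets, so most of their order in bracts and pistil was read near background. Among the 21, replicate 1 was the highest bract array in 14 and the highest pistil array in 17. The members of the 45 are those with the wider gap, and the ranges of members and others overlapped in both organs, with members at 7.59 to 11.73 in bracts and 6.53 to 10.35 in pistil.

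The other 17 members were mixed. Ta.4796.1.S1_at and Ta.4626.1.S1_at were high in pistil alone of the 3 organs. Ta.4796.1.S1_at read 15.12, 15.31 and 15.20 in pistil, 7.09, 6.51 and 6.88 in anthers and 6.24, 6.38 and 6.77 in bracts, 8.75 ± 0.32 above bracts (adjusted p = 5.29e-19, limma) and with anthers minus pistil at −8.38 ± 0.32 (adjusted p = 3.45e-19, limma). Its anther and bract arrays overlapped, and the 3-5 DAP caryopsis, the fertilised ovary some days later, was next at 5.18. Ta.4626.1.S1_at read 14.92, 15.05 and 14.97 in pistil, 7.56, 4.90 and 6.75 in anthers and 6.96, 7.55 and 5.65 in bracts. It was 8.26 ± 0.53 above bracts (adjusted p = 1.02e-13, limma), and anthers minus pistil was −8.57 ± 0.53 (adjusted p = 1.79e-14, limma). Its anther replicates 2 and 3 and its bract replicate 3 lay below the highest array of the other tissues.

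A second kind was high in anthers and pistil and low in bracts. TaAffx.12611.1.S1_at read 14.86, 14.62 and 14.61 in anthers, 13.86, 14.16 and 13.90 in pistil and 7.73, 8.01 and 6.94 in bracts. TaAffx.94479.1.S1_at read 12.81, 12.91 and 13.03 in anthers, 11.83, 12.23 and 12.11 in pistil and 6.32, 6.82 and 6.19 in bracts. Both passed as higher in anthers and in pistil than in bracts, while anthers minus pistil did not pass, at 0.72 (adjusted p = 0.12, limma) and 0.86 (adjusted p = 0.083, limma). TaAffx.39516.1.S1_at averaged 12.16 in anthers, 8.93 in bracts and 13.09 in pistil, and Ta.27429.1.S1_at 10.69 in anthers, 8.43 in bracts and 11.06 in pistil. These 4 probesets were named after their values had been seen.

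A further kind was well expressed in all 3 organs and also elsewhere. By the level of their lowest floral organ the first 5 members were Ta.10331.1.S1_at, Ta.8908.1.S1_at, TaAffx.60976.1.S1_at, Ta.23252.1.S1_at and TaAffx.6880.1.S1_at. Ta.10331.1.S1_at read 14.75, 14.51 and 14.70 in anthers, 12.93, 12.97 and 13.15 in bracts and 14.23, 14.50 and 14.24 in pistil. It was between 9.40 and 11.79 in 9 of the 10 other tissues and 6.39 in the 22 DAP endosperm, so that it was read in nearly all tissues. Ta.8908.1.S1_at differed little over the floret, with 12.36, 12.12 and 12.25 in anthers, 11.49, 12.10 and 11.83 in bracts and 11.84, 11.97 and 11.96 in pistil, and seedling root was next at 10.65. For TaAffx.60976.1.S1_at the means were 12.06 in anthers, 11.36 in bracts and 11.64 in pistil, with 10.03 in the caryopsis. Ta.23252.1.S1_at averaged 13.26 in anthers, 11.02 in bracts and 12.61 in pistil, and TaAffx.6880.1.S1_at 13.86 in anthers, 10.70 in bracts and 11.60 in pistil.

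The 2 members paired with a locus both belonged to the anther kind. Ta.10341.1.S1_at read 14.86, 14.68 and 14.92 in anthers, 8.27, 7.66 and 8.30 in bracts and 7.79, 7.46 and 7.58 in pistil. Its bract and pistil arrays overlapped and the difference of −0.47 ± 0.38 did not pass (adjusted p = 0.45, limma). The seedling leaf was next at 6.30.

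Among the 10 other tissues the rule set only a ceiling, and for 33 members all 10 means were under the reporter value, which leaves little level to compare. Relative to the mean of the other 9, the immature inflorescence was higher for 3 members (7.46% of retained probesets) and lower for 2 (6.72%). The 3-5 DAP caryopsis was higher for 2 (5.01%) and lower for 1 (7.88%), the seedling root higher for 3 (10.2%) and lower for 2 (8.04%), and the seedling leaf higher for 4 (13.8%) and lower for 1 (11.1%). The widest was Ta.20678.1.S1_at in seedling leaf, at 7.14, 6.68 and 6.28 on the leaf arrays, 2.01 ± 0.37 above the mean of the other 9 (adjusted p = 3.6e-05, limma). All 4 of these counts moved by over 1.5 times when the minimum difference was dropped. Without caryopsis replicate 1 its counts were 0 higher and 3 lower, and without its replicate 2 they were 1 and 1. The inflorescence count also moved with single arrays, with 2 members in all without its replicate 2 and 3 without its replicate 3, and that of seedling root was 3 without its replicate 2.

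By the rule each member is at least 1 higher within each group of arrays as well, so the counts that follow were fixed by it and only the sizes describe the members. On the 9 arrays with low dap signal, the lower of bracts and pistil was above seedling root by 1.15 to 5.72 with a median of 2.39, and by at least 1 in 55 of 55 (8.12% of retained probesets). On the 30 other arrays, anthers were above the highest of the 9 other tissues by 1.11 to 10.62 with a median of 8.93, and by at least 1 in 55 of 55 (4.73% of retained probesets). Seedling root was the only other tissue among the 9 arrays, so the difference of bracts and pistil from the 9 remaining tissues cannot be told apart from that between the groups of arrays.

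Probesets chosen on 2 replicates were read in the arrays of the replicate left out. With replicate 1 left out 43 probesets were chosen, and 34 of them (79.1%) had a gap of at least 1 in its arrays, against 0.162% of retained probesets. With replicate 2 left out it was 35 of 60 (58.3%, against 0.0986%), and with replicate 3 left out 29 of 51 (56.9%, against 0.0935%). The median gap in the arrays left out was 1.95 for replicate 1, 1.09 for replicate 2 and 1.12 for replicate 3, where the medians over all retained probesets were −1.62, −1.63 and −1.63. The gap was above 0 in 42, 53 and 45 of the chosen probesets, against 1.68%, 1.42% and 1.6% of those retained.

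Probesets that the name filter had left out gave a further reading of the same transcript clusters. There were 10 of them, in the clusters of 8 members, and they can share probes and sequence with the member. A gap of at least 1 was seen in 8 of the 10, against 0.241% of all probesets left out by name, and of at least 0 in 9, against 2.19%, and their median gap was 1.88 against −1.67. The widest were TaAffx.59876.1.S1_x_at with 2.89, TaAffx.94716.2.S1_x_at with 2.18, Ta.654.3.S1_a_at with 2.13, Ta.8646.1.S1_s_at with 1.96 and Ta.10379.1.A1_at with 1.91. The narrowest were Ta.654.3.S1_x_at with 1.61, Ta.4081.2.S1_x_at with 0.33 and TaAffx.23544.1.A1_at with −0.38, whose highest other tissue was the immature inflorescence. Another 2 retained probesets lay in members' clusters without being members, Ta.22833.1.S1_at with a gap of 0.88 and Ta.4081.3.S1_at with −0.95.

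Genes of the processes known in these organs were read from 6 lists. A gap above 0 was seen in 0 of their probesets, where 1.75% of all retained probesets had one, so that few or none would be counted in lists of this size. Of 5 retained anther and pollen probesets, 4 were higher (15.5% of retained probesets) and 0 lower (16.4%) in anthers than in bracts (all but WZF1). Against pistil, 4 were higher (14.5%) and 0 lower (14.4%) in anthers (all but GA20ox1d). Besides raftin1a the list held GA20ox1b, an enzyme of gibberellin synthesis, with 9.21 in anthers, 4.84 in bracts and 5.72 in pistil, GA20OX1-A, with 7.57 in anthers, 5.36 in bracts and 6.03 in pistil, GA20ox1d, and WZF1, which encodes a zinc finger protein. GA20ox1d averaged 8.12 in anthers, 4.67 in bracts and 8.40 in pistil, and WZF1 averaged 11.52 in anthers, 11.49 in bracts and 7.70 in pistil. GA20ox1d and GA20OX1-A were highest in root of germinating seed, at 8.59 and 8.36. Raftin1a, GA20ox1b and WZF1 were highest in anthers, though WZF1 also averaged 11.39 in seedling leaf. Of 30 photosynthesis probesets of 7 genes, 3 were higher (15.5% of retained probesets) and 17 lower (16.4%) in anthers than in bracts. In pistil 1 was higher (7.47%) and 17 lower (10.6%) than in bracts. Most of the 30 were probesets of 1 gene, rbcl. The 3 higher in anthers were all of rbcl, at 5.78 to 6.07 in anthers, under the reporter value of 6.52. Other rbcl probesets were among the 17 lower in anthers.

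Of 11 probesets of 6 cell division genes (histones and tubulins), 9 were higher (7.47% of retained probesets) and 1 lower (10.6%) in pistil than in bracts. The 1 lower was a tubulin probeset, Ta.212.1.S1_at, at −1.98. Against pistil, 0 were higher (14.5%) and 8 lower (14.4%) in anthers. H2A-3, a core histone gene, read 12.94, 13.15 and 13.05 in pistil and 8.65, 8.59 and 8.18 in bracts, a difference of 4.57 (adjusted p = 3.7e-11, limma). Of 3 wall and hydrolase probesets, 2 were higher (7.47% of retained probesets) and 0 lower (10.6%) in pistil than in bracts. XTH, which encodes an enzyme that cuts and rejoins xyloglucan in the cell wall, averaged 7.31 in anthers, 9.45 in bracts and 12.31 in pistil. Of 3 secreted and defence probesets 1 was higher (15.5% of retained probesets) and 1 lower (16.4%) in anthers than in bracts. The 1 higher was Pur-A1, which averaged 6.39 in anthers, under the reporter value of 6.52, and 4.93 in bracts. Its highest tissue was the 22 DAP endosperm, at 16.30. The lipid transfer protein gene LTP3 averaged 9.28 in anthers, 13.57 in bracts and 13.73 in pistil. No retained probeset was found for the floral identity genes of the MADS-box kind.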

How the data were processed

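RNA of 13 tissues had been hybridized to 39 wheat arrays, 3 per tissue. The authors deposited 1 linear signal intensity per probeset and array, made with MAS5 (version not given in the sources used here), with a 2% trimmed mean of 500.2 to 500.4 on each array. The authors' own analysis used RMA values, which were not used here. All per-sample columns matched a sample (0 did not).

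Values were used as log2(signal + 16), so differences of low probesets are understated. After removal of the suffixes _s_at, _x_at, _a_at and .A1, 39564 probesets were retained. The authors also left out probesets not clearly anchored to the polyadenylated end of a transcript, whose signal they judged unreliable. Such probesets were not removed here. They also judged it likely that for most genes a probeset sums over homoeologs, the matching gene copies of the wheat genomes. A table paired 1273 probesets with genes, 200 of them named, of which 110 were retained. Linear models with a mean for each tissue, no covariates and empirical Bayes were run in limma 3.58.1 (R 4.3.3), and calls needed an adjusted p under 0.05 and a difference of at least 1. The fit was tested on simulated data. The number of arrays limits the precision.

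Named probesets were the 10 widest gaps, 3 on each side of the threshold, those paired with a gene, up to 2 called per direction and contrast among the organs without overlapping replicates, the 5 with the highest lowest organ, and cluster mates. The lists (anther and pollen, floral identity, wall and hydrolases, secreted and defence, photosynthesis, cell division) were matched by gene name. Members and lists were chosen with earlier results of these data known. Alternatives were quantile normalization, equal medians, scaling to the hybridization controls, offsets of 1 and 64, a filter on level, all wheat probesets, trended and robust empirical Bayes, fits of the contrast's tissues only, a replicate block, no minimum difference, gap thresholds of 0.5 and 2, the set without seedling root, and leaving out each array. For a contrast only arrays of its own tissues were left out. Figures were drawn with matplotlib 3.10.9, pandas 2.3.3 and numpy 2.4.6 under Python 3.11.15.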

Additional observations from a re-analysis of the deposited data

How the results depend on the processing

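The number of members depended most on the thresholds: it was 19 with a gap of at least 2, 139 with 0.5, 36 with an offset of 64 and 107 with no filter on probeset names, and between 50 and 60 when 1 array was left out. The members called in anthers minus bracts (47) and in anthers minus pistil (43) stayed at 47 and 43 without any 1 array of the organs compared. They stayed within 1.5 times under each other setting run. Of the 55 members, 43 passed the filter on level. The rule kept 48 of them with quantile normalization, 49 with equal medians and 48 scaled to the hybridization controls. In pistil minus bracts 25 members were called, 8 with an offset of 1, and 12 to 30 when 1 array was left out. The replicate block gave 7 higher and 18 lower there, and left the 47 and 43 as they were. Whether arrays of the same replicate number came from the same collection is not stated in the sources used here. In the immature inflorescence (5 calls) there were 2 with an offset of 64 and 9 with no minimum difference, and 2 to 6 when 1 array was left out. In the caryopsis (3 calls) there were 7 with an offset of 1, 0 with an offset of 64 and 8 with no minimum difference, and 2 to 3 when 1 array was left out (0 higher and 3 lower without its replicate 1). In the seedling root (5 calls) there were 8 with an offset of 1, 2 with an offset of 64 and 9 with no minimum difference, and 3 to 5 when 1 array was left out. In the seedling leaf (5 calls) there were 9 with an offset of 1 and 13 with no minimum difference, and 4 to 5 when 1 array was left out. The share of all calls that were higher in a tissue moved by over 10 points in the leaf (55.4% as deposited, 40.7% with equal medians, 23.1% scaled to the hybridization controls), the caryopsis (38.9% as deposited, 55.4% with equal medians) and the inflorescence (52.6% as deposited, 66.7% scaled to the hybridization controls). No difference of a named member reversed under the alternatives run, and 2 of them, those of Ta.3931.1.S1_at and Ta.14414.1.S1_at, no longer passed with an offset of 1. The gaps of named members were less steady. Under the other normalizations and offsets, 22 of these gap readings moved by at least the standard error of a difference of means, and 78 did not. The causes of these changes were not tested. Signals near the top of the anther range and levels near those of the reporter probesets limit how far the highest and lowest values can be told apart.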
